A study of Homo sapiens with 6 samples.

Results

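10 chemokine genes were followed in a transfection experiment on the microRNA miR-27a-3p: CXCL1, CXCL2, CXCL3, CXCL5, CXCL6, CXCL8, CXCL16, CX3CL1, CCL2 and CCL20. They were taken from the series' expression matrix by gene name, and all 10 were among its 58174 genes. In 3 samples the cells had been transfected with a miR-27a-3p mimic, a synthetic RNA duplex that raises the level of the microRNA. They were set against 3 samples of the same cells transfected with a negative control RNA. Both groups carry the label Huh-7, the name of an established human hepatoma line, were transfected with the lipid reagent Lipofectamine and were collected after 48 h, and no other genotype, allele or drug is named for either group. The title of the series concerns the sensitivity of liver cancer cells to cisplatin, but no sample is labelled as cisplatin-treated. Polyadenylated RNA was sequenced, and the deposited unit is FPKM, the number of sequenced fragments scaled to transcript length and to the size of the library.

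Several facts of the libraries bear on every value. Whether replicate samples were grown as separate cultures is not stated in the labels, so the spread behind each p-value is that between these samples and may be technical. Genes at 1 FPKM or more numbered 13007 to 13250 in the mimic libraries, against 15109 to 15494 in the control libraries. Mitochondrial genes took 14.6%, 24.3% and 38.9% of the summed FPKM in mimic samples 1, 2 and 3, against 16.9%, 18.4% and 32.8% in control samples 1, 2 and 3. The defining transcripts of liver cells went against the label in both groups. APOA2, APOB and TTR were listed at 0 in all 6 samples, ALB did not exceed 0.0110 FPKM and AFP did not exceed 0.0237 FPKM in any sample. The cells are therefore called here the cells labelled Huh-7.

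Chemokines are small secreted proteins that bind G protein-coupled receptors on leukocytes and draw them toward the source. CXCL1, CXCL2, CXCL3, CXCL5, CXCL6 and CXCL8 carry a short glutamate-leucine-arginine motif ahead of the first cysteine pair. They attract neutrophils mainly through CXCR2, and CXCL6 and CXCL8 also act through CXCR1. CCL2 attracts monocytes through CCR2, and CCL20 attracts dendritic cells and lymphocytes through CCR6. CXCL16 and CX3CL1 are made as membrane-anchored proteins, whose soluble forms are released by the proteases ADAM10 and ADAM17. Transcription of many inflammatory chemokines is switched on by NF-kappaB and AP-1, and their mRNAs are often short-lived because of AU-rich elements in the 3′ untranslated region. A microRNA lowers mRNAs whose 3′ untranslated regions pair with its seed.

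The mature microRNA and its matches in the chemokine transcripts are shown because they are the sequences through which a mimic could pair with these genes. The mature sequence is from RefSeq, lies on the minus strand of chromosome 19 at chr19:13836447-13836467 (GRCh38.p14), and has its seed, bases 2 to 8, in capitals. The sites are 26 bases of the longest annotated 3′ untranslated regions (GENCODE release 29, hg38), with the match to the seed in capitals. CXCL2 (minus strand, chr4:74097355-74097380), CXCL1 (plus strand, chr4:73870905-73870930) and CXCL16 (minus strand, chr17:4733823-4733848) each held a single match.
miR-27a-3p: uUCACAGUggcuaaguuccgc
CXCL2: atgtcagccACTGTGAtagaggctga
CXCL1: atgccagccACTGTGAtagaggctgg
CXCL16: tgcgcccttACTGTGAttcctggctt
The words searched, on the transcript strand, were ACTGTGA (bases 2 to 8 of the seed), CTGTGAA (bases 2 to 7 with an A opposite base 1) and ACTGTGAA, which contains both. CX3CL1 held CTGTGAA. CXCL3, CXCL5, CXCL6, CXCL8, CCL2 and CCL20 held none of the 3 words, which says only that these letters are not in those regions. Of the tested genes, 3310 of 11465 with a usable 3′ untranslated region held at least 1 of them (28.9%). Among genes with 3′ untranslated regions of similar length, the share was 13.7% for CXCL2, 19.0% for CXCL16, 23.0% for CXCL8, 12.4% for CXCL3 and 10.4% for CCL2.

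The promoters were read because 3 of the genes called lie close together on chromosome 4. Windows of 250 bases before to 50 bases after the start came from RefSeq (GRCh38.p14), and 7 of the 10 genes matched: CXCL1, CXCL2, CXCL3, CXCL5, CXCL6, CXCL8 and CCL20. Capitals mark the word GGAATTTCC, a core of NF-kappaB sites, the broader NF-kappaB consensus, and the AP-1 word TGANTCA. The windows are chr4:73740319-73740618 (plus strand) for CXCL8, chr4:74099146-74099445 (minus strand) for CXCL2, chr4:74038640-74038939 (minus strand) for CXCL3, chr4:73869143-73869442 (plus strand) for CXCL1 and chr2:227813592-227813891 (plus strand) for CCL20.
CXCL8: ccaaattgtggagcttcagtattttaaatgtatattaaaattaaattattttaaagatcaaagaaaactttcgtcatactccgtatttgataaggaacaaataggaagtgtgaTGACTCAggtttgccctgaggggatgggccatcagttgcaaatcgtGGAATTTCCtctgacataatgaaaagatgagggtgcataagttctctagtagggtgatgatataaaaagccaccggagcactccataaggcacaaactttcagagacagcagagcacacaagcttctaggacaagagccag
CXCL2: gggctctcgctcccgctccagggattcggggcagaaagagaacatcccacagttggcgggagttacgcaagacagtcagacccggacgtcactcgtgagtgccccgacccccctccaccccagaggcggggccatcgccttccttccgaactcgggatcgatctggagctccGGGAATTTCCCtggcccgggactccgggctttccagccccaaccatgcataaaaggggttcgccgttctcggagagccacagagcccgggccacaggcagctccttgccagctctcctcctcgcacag
CXCL3: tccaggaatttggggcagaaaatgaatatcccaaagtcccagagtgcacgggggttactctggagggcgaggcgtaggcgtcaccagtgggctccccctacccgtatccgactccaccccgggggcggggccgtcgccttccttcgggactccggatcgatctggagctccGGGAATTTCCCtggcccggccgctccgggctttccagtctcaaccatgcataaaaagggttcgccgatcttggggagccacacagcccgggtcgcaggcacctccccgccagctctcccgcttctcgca
CXCL1: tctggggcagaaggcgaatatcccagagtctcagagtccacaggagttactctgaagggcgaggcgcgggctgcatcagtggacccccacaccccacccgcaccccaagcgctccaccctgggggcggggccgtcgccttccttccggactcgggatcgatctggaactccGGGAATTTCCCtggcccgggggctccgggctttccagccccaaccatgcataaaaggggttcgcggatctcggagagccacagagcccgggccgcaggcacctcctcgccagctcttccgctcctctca
CCL20: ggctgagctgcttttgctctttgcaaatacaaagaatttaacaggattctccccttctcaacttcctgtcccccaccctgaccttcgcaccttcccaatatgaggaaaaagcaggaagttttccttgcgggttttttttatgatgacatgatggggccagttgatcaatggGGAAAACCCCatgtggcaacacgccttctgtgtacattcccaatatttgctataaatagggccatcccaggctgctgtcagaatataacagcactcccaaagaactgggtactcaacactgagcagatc
Both strands were searched. GGAATTTCC was present in 6 of the 7 windows, all but that of CCL20, against 162 of the 35116 windows that the table gives for 27305 genes (0.461%). It was chosen after the sequences had been read, so its share among these windows is no test. The letters around it were alike in CXCL1, CXCL2 and CXCL3, and in CXCL5 and CXCL6. The 6 windows are therefore not independent. The NF-kappaB consensus, whose matches can overlap the core word, was found in CXCL1, CXCL2, CXCL3, CXCL5, CXCL6 and CCL20 but not in CXCL8, against 5.91% of all windows. TGANTCA was found only in the CXCL8 window among the 7, against 7.71% of all windows. A match is a description of letters and shows no binding.

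Transcripts of the neutrophil chemokines that could be measured were lower in the mimic samples. CXCL8 and CXCL2 fell by more than 3 on the log2 scale, CXCL3 fell by about 1, and CXCL1, CXCL5 and CXCL6 were listed at 0 in all 6 samples. CXCL8 (ENSG00000169429, chr4:73740506-73743716, plus strand), the prototype neutrophil attractant also called interleukin-8, had 0.618, 0.628 and 0.386 FPKM in mimic samples 1, 2 and 3, against 16.4, 12.8 and 18.7 FPKM in control samples 1, 2 and 3. The groups were far apart, and every mimic sample was below 1 FPKM. CXCL8 averaged 0.544 ± 0.137 FPKM in mimic samples and 16.0 ± 2.95 FPKM in control samples (SD, n = 3 each). The mean in control samples was 29.3 times that in mimic samples. By limma on log2(FPKM + 0.5), the log2 fold change was -3.97 (SE 0.18, adjusted p = 8.24e-06). The added 0.5 FPKM understates the change of a gene at this level, and CXCL8 reached the mean of 1 FPKM needed for testing only through the control samples. In bulk RNA, fewer cells expressing a gene and less RNA per cell cannot be told apart, here or for the other genes.

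CXCL2 (ENSG00000081041, chr4:74097035-74099293, minus strand), which shares the receptor CXCR2, was the most abundant of the 10 in the control samples. It had 5.46, 5.15 and 4.74 FPKM in mimic samples 1, 2 and 3, against 48.8, 42.4 and 63.4 FPKM in control samples 1, 2 and 3. The groups did not overlap, and the lowest control value stood well above the highest mimic value. The means were 5.12 ± 0.359 FPKM in mimic samples and 51.5 ± 10.7 FPKM in control samples (SD, n = 3 each), a 10.1-fold difference. The log2 fold change by limma was -3.19 (SE 0.17, adjusted p = 1.48e-05). Ordered from the lowest log2 fold change up, CXCL8 stood at rank 14 and CXCL2 at rank 35 of the 14439 genes tested.

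CXCL3 (ENSG00000163734, chr4:74036589-74038807, minus strand), a close relative of CXCL2, changed less. It had 1.38, 1.17 and 1.33 FPKM in mimic samples 1, 2 and 3, against 3.07, 2.85 and 4.29 FPKM in control samples 1, 2 and 3. The groups did not overlap, and control sample 3 was the highest for CXCL3, as it was for CXCL8 and CXCL2. The log2 fold change by limma was -1.11 (SE 0.18, adjusted p = 0.00123), at rank 2247 in the same order. Under quantile normalization the CXCL3 call was lost, with a log2 fold change of -0.45 (SE 0.20, adjusted p = 0.0968). CXCL2 stood at 3.96, 4.41 and 3.56 times the FPKM of CXCL3 in mimic samples 1, 2 and 3, against 15.9, 14.9 and 14.8 times in control samples 1, 2 and 3.

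**Figure D1:**
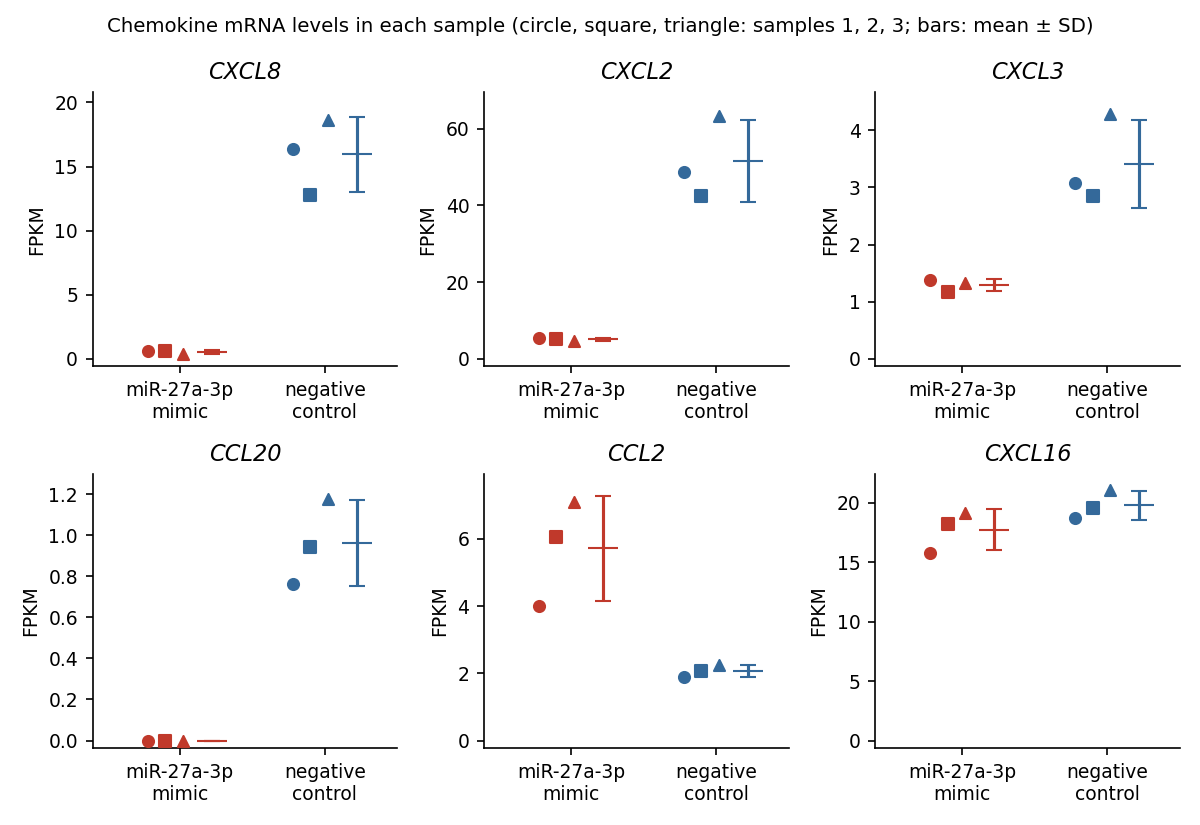
FPKM (vertical axis, linear and scaled for each panel) of 6 chemokine genes in mimic samples at the left and negative control samples at the right, with circle, square and triangle for samples 1, 2 and 3 and a bar for the mean ± SD. CX3CL1, CXCL1, CXCL5 and CXCL6, at or near 0, are not drawn. CXCL8, CXCL2 and CXCL3 lay lower in all 3 mimic samples, CCL2 lay higher in all 3, and the groups overlapped for CXCL16.

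Sequence likeness limits how finely these genes can be separated. The longest protein-coding transcripts of CXCL1 and CXCL2 were 90.5% identical over their alignment and shared 60 exact windows of 50 bases. Windows were counted from every base, so neighbouring windows overlap and the counts are not numbers of separate stretches. CXCL2 and CXCL3 were 83.3% identical and shared 54 such windows, and CXCL1 and CXCL3 were 81.7% identical and shared 6. Reads from the shared stretches could have been given to either gene, so the split between CXCL1, CXCL2 and CXCL3 is uncertain. CXCL8 shared no such window with the other 5, at identities of 60.6% to 63.0%, and CXCL5 and CXCL6 shared none with each other at 81.2%.

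The 6 neutrophil chemokine genes lie in a 358.8 kb stretch of chromosome 4 (chr4:73740506-74099293). The matrix places 16 genes there, of which 10 were listed at 0 in all 6 samples. Only CXCL8, CXCL3 and CXCL2 reached 1 FPKM in any sample, so the expressed genes of the stretch were the ones that fell.

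CCL20 (ENSG00000115009, chr2:227813842-227817564, plus strand), the ligand of CCR6, was listed at 0 in all 3 mimic samples, against 0.764, 0.943 and 1.18 FPKM in control samples 1, 2 and 3. It was detected in every control sample and in no mimic sample. No fold is given against values of 0 without counts. The mean over all samples was under the 1 FPKM needed for testing, and the two-sided exact permutation p for CCL20 was 0.1, the smallest that 3 against 3 samples allow. The exact p was 0.1 for CXCL8, CXCL2, CXCL3 and CCL2 as well. With no filter, CCL20 was called lower by limma (adjusted p = 0.00108 over 35796 genes), a value that depends on the added 0.5 FPKM.

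CCL2 (ENSG00000108691, chr17:34255218-34257203, plus strand), the monocyte attractant, was the member that rose. It had 4.0, 6.05 and 7.10 FPKM in mimic samples 1, 2 and 3, against 1.89, 2.07 and 2.24 FPKM in control samples 1, 2 and 3. The groups did not overlap, and mimic sample 1 was the lowest of its group. The means were 5.72 ± 1.57 FPKM in mimic samples and 2.06 ± 0.171 FPKM in control samples (SD, n = 3 each), a ratio of 2.77. The log2 fold change by limma was 1.25 (SE 0.20, adjusted p = 0.00142).

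The membrane-anchored chemokines showed no call. CXCL16 (ENSG00000161921, chr17:4733526-4739922, minus strand), the ligand of CXCR6, had 15.8, 18.3 and 19.1 FPKM in mimic samples 1, 2 and 3, against 18.7, 19.5 and 21.1 FPKM in control samples 1, 2 and 3. The groups overlapped, with means of 17.7 ± 1.72 FPKM in mimic samples and 19.8 ± 1.22 FPKM in control samples (SD, n = 3 each). The log2 fold change by limma was -0.16 (SE 0.13, adjusted p = 0.347), and with median-of-ratios scaling it was 0.16 (SE 0.15, adjusted p = 0.384), so its direction depended on the scale. CXCL16 and CXCL2 both carry a seed match, and of the pair CXCL2 was called lower and CXCL16 was not called. CXCL8, with the lowest fold change of the 5 genes tested, held no match in the region searched. How often all genes with a match were called lower or higher was not counted. The part of the seed match in the levels was not tested. CX3CL1 (ENSG00000006210, chr16:57372458-57385048, plus strand), also called fractalkine, was listed at 0 in mimic samples 1 and 3 and control samples 1 and 2, with 0.00687 FPKM in mimic sample 2 and 0.0170 FPKM in control sample 3. It was not tested.

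Of the 10 genes, 5 passed the filter on low values, and at an adjusted p under 0.05 by limma 3 of them were called lower in mimic samples and 1 higher. Across all 14439 genes tested, 39.6% were called lower and 12.0% higher. In 3 of the 5 the groups did not overlap with the mimic samples lower, and in 1 with the mimic samples higher, against 44.3% and 16.2% of all tested genes. Calls were thus common across the transcriptome, and the counts say little about the 5 genes beyond it. The median log2 fold change of the 5 was -1.11, against -0.29 over all tested genes. Median-of-ratios scaling, which moved the median of all genes to 0.01, called 27.4% of genes lower and 26.9% higher. On that scale the 5 genes again gave 3 lower and 1 higher calls. CXCL8 was then at -3.73 (SE 0.18, adjusted p = 3.98e-05), CXCL2 at -2.88 (adjusted p = 8.19e-05), CXCL3 at -0.85 (SE 0.19, adjusted p = 0.00830) and CCL2 at 1.52 (SE 0.23, adjusted p = 0.00164), as log2 fold changes by limma.

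**Figure D2:**
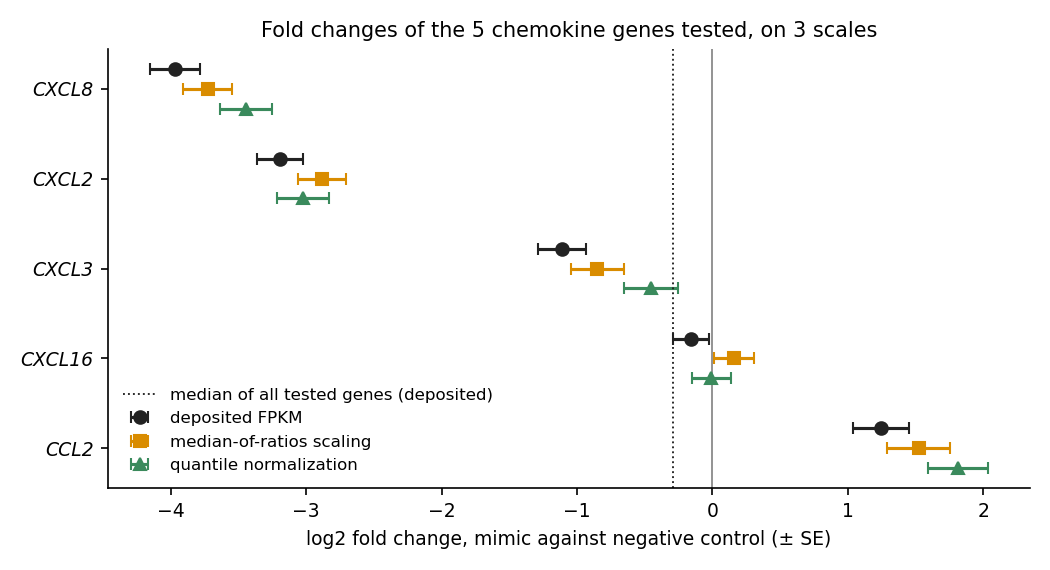
Log2 fold change of mimic against negative control samples with its standard error for the 5 tested chemokine genes, on the deposited FPKM, after median-of-ratios scaling and after quantile normalization; the dotted line marks the median of all tested genes, -0.29. CXCL8, CXCL2 and CXCL3 stayed below 0 and CCL2 above 0 on all 3 scales, and CXCL16 lay on both sides of 0.

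Added together, the 10 genes reached 27.3, 31.3 and 32.7 FPKM in mimic samples 1, 2 and 3, against 89.7, 80.6 and 110.9 FPKM in control samples 1, 2 and 3. The makeup of the sum differed as well as its size. CXCL16 took 58.0% to 58.5% of it in mimic samples, against 19.1% to 24.2% in control samples, and CXCL2 took 14.5% to 20.0% in mimic samples, against 52.6% to 57.2% in control samples. CCL2 took 14.7% to 21.7% in mimic samples, against 2.02% to 2.56% in control samples. CXCL8 took 1.18% to 2.27% in mimic samples, against 15.9% to 18.3% in control samples. By FPKM, CXCL16 was thus the most abundant of the 10 in every mimic sample and CXCL2 in every control sample.

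**Figure D3:**
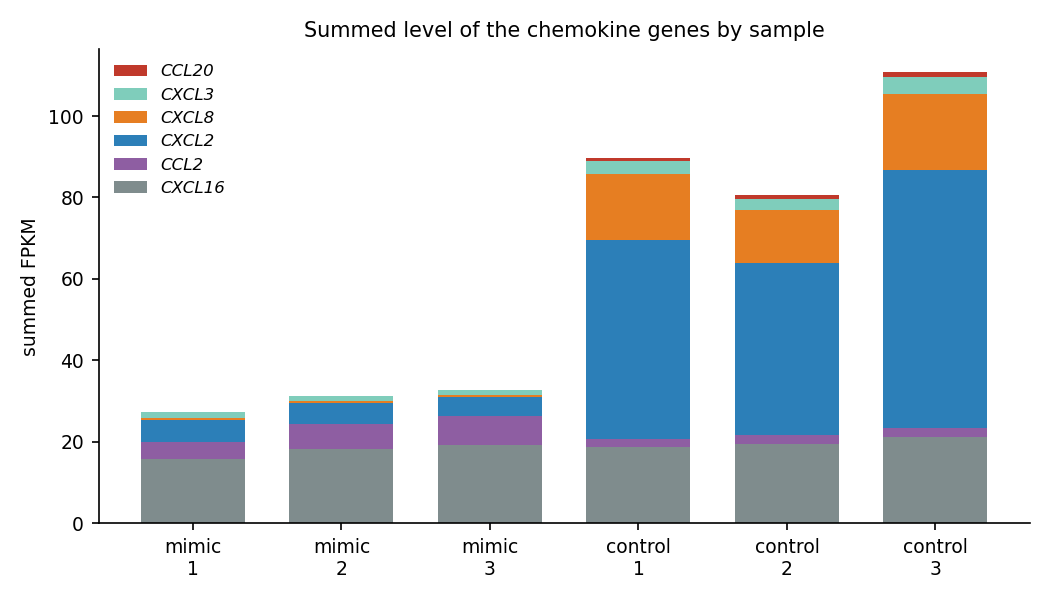
Summed FPKM of the 10 chemokine genes in each sample, mimic samples to the left of negative control samples, with each bar divided by gene. The bars reach 27.3 to 32.7 FPKM in mimic samples and 80.6 to 110.9 FPKM in control samples, and the CXCL2 and CXCL8 segments are much smaller in mimic samples.

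The start sites and motif words were laid out beside the levels. GGAATTTCC began at positions -91 to -77, with the start base as 0, in the 6 chemokine windows that held it, and the AP-1 word of CXCL8 began at position -137. The genes with the word thus ranged from CXCL8 and CXCL2, which fell most, to CXCL1, CXCL5 and CXCL6, which were at 0. Of 9432 tested genes with a window in the table, 55 held GGAATTTCC in at least 1 of their windows, and 32.7% of these were called lower and 10.9% higher. Of the 9377 without it, 33.5% were called lower and 13.7% higher, so the shares with and without the word were close. For TGANTCA, 36.9% of the 643 genes with the word were called lower and 14.5% higher, against 33.3% lower and 13.6% higher of the 8789 without it. For the NF-kappaB consensus, 32.6% of the 835 genes with a match were called lower and 16.0% higher, against 33.6% lower and 13.4% higher of the 8597 without one.

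**Figure D4:**
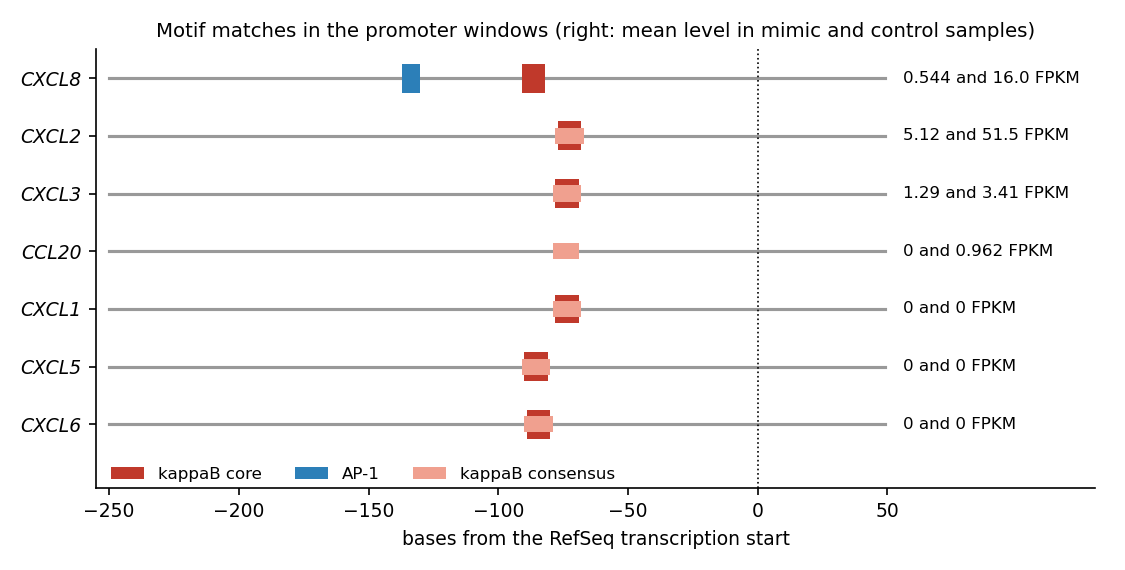
Position of motif words in the promoter windows of the 7 chemokine genes found in the RefSeq table, as distance in bases from the transcription start, with mean FPKM in mimic and negative control samples at the right. The NF-kappaB words begin between positions -91 and -77 in all 7, and the AP-1 word appears in CXCL8 only.

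AU-rich words in the 3′ untranslated region were counted because they mark short-lived chemokine mRNAs. The sites below are 26 bases each (GENCODE release 29, hg38), with 1 copy of the nonamer TTATTTATT in capitals, at chr4:74097584-74097609 (minus strand) for CXCL2, chr4:73742665-73742690 (plus strand) for CXCL8 and chr4:74036775-74036800 (minus strand) for CXCL3. In the CXCL2 stretch, further copies overlap the marked copy and run into the small letters.
CXCL2: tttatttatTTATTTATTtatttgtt
CXCL8: tgtaaagtaTTATTTATTtgaatcta
CXCL3: tgtcagttgTTATTTATTcaaattat
CXCL2 held 5 copies of the nonamer, CXCL1 held 3, and CXCL3, CXCL8 and CX3CL1 held 1 each, on the transcript strand and counting overlapping copies. CXCL5, CXCL6, CXCL16, CCL2 and CCL20 held no nonamer, but they did hold the shorter AU-rich word ATTTA. It occurred 11 times in CXCL5, 6 in CXCL6, 3 in CCL20 and 1 each in CCL2 and CXCL16. The counts were 10 in CXCL2, 9 in CXCL8, 7 in CXCL3, 5 in CXCL1 and 2 in CX3CL1. ATTTA was present in 72.4% of the 3′ untranslated regions of tested genes. The nonamer was present in 1047 of 11465 tested genes' 3′ untranslated regions (9.13%), and in 5.36% of those similar in length to CXCL2, 6.98% for CXCL8 and 5.05% for CXCL3. The 3 chemokine genes called lower each held the nonamer, and CCL2, called higher, and CXCL16, with no call, did not. CCL20, which was under the filter and listed at 0 in every mimic sample but in no control sample, held none either. How often all genes with the nonamer were called lower or higher was not counted. The part of the nonamer in the levels was not tested.

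Other chemokine ligands were mostly undetected. Of 36 further ligand genes named in the matrix, 18 were listed at 0 in all samples, 14 more were below the filter and 4 were tested. Of the 4, 2 were called lower and none higher, against 39.6% lower and 12.0% higher over all tested genes. CCL28, a mucosal chemokine, averaged 2.71 ± 0.590 FPKM in mimic samples and 5.68 ± 1.06 FPKM in control samples (log2 fold change -0.95, SE 0.19, adjusted p = 0.00384 by limma). CXCL11, an interferon-induced ligand of CXCR3, averaged 1.38 ± 0.399 FPKM in mimic samples and 2.60 ± 0.206 FPKM in control samples (log2 fold change -0.74, SE 0.19, adjusted p = 0.0116 by limma). The CXCL11 call was lost with median-of-ratios scaling (adjusted p = 0.0653) and without sample 3 of both groups (0.0510). With quantile normalization the CXCL11 log2 fold change was -0.046 (adjusted p = 0.850), the CCL28 call was lost as well (adjusted p = 0.133), and none of the 4 ligands was called lower. CCL5, a T-cell and monocyte attractant, was the most abundant chemokine in every sample, with 80.2, 159.1 and 114.6 FPKM in mimic samples 1, 2 and 3, against 188.1, 263.1 and 123.6 FPKM in control samples 1, 2 and 3. Its groups overlapped and it was not called (log2 fold change -0.69, SE 0.33, adjusted p = 0.117 by limma), but leaving out control sample 3 gave an adjusted p of 0.0357. CCL26, an eosinophil attractant, was not called either (log2 fold change -0.16, SE 0.23, adjusted p = 0.581 by limma). The median log2 fold change of the 4 ligands was -0.71, against -0.29 over all tested genes.

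The receptors through which the 10 chemokines act were nearly undetected. CXCR1, CXCR2, CCR2 and CCR6 were listed at 0 in all samples, and CXCR6 averaged 0.0239 FPKM in mimic samples and 0.0769 FPKM in control samples. Of 23 receptor genes 3 were tested, with 2 called lower and none higher, around a median of -0.74 on the log2 scale. Over all tested genes 39.6% were called lower and 12.0% higher. With median-of-ratios scaling and with quantile normalization 1 of the 3 receptor genes was called lower. CXCR4, the receptor of CXCL12, averaged 30.9 ± 3.68 FPKM in mimic samples and 50.6 ± 5.65 FPKM in control samples (log2 fold change -0.70, SE 0.15, adjusted p = 0.00474 by limma). CCR10, the receptor of CCL28, averaged 1.60 ± 0.414 FPKM in mimic samples and 2.98 ± 0.374 FPKM in control samples (log2 fold change -0.74, SE 0.19, adjusted p = 0.0111), a call lost with median-of-ratios scaling (adjusted p = 0.0604) and with quantile normalization (log2 fold change -0.078, adjusted p = 0.747). ACKR3, a scavenging receptor, was not called (log2 fold change -0.99, SE 0.40, adjusted p = 0.0721), but it was called without mimic sample 3 (adjusted p = 0.0445) or without control sample 1 (adjusted p = 0.0319).

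Genes that release or hold chemokines at the cell surface moved in both directions. Of 11 such genes 6 were tested, and 1 was called lower and 2 higher, around a median of -0.07 on the log2 scale, against 39.6% lower and 12.0% higher over all tested genes. After median-of-ratios scaling none was called lower and 3 higher, against 27.4% and 26.9% of all tested genes, and the median turned to 0.24. SDC3, a heparan sulfate proteoglycan, averaged 9.89 ± 1.04 FPKM in mimic samples and 5.40 ± 0.0683 FPKM in control samples (log2 fold change 0.81, SE 0.13, adjusted p = 0.00129 by limma). MMP14, a membrane metalloprotease, averaged 3.94 ± 0.186 FPKM in mimic samples and 2.14 ± 0.407 FPKM in control samples (log2 fold change 0.76, SE 0.16, adjusted p = 0.00489). ADAM10, which cleaves CXCL16 and CX3CL1, averaged 6.01 ± 0.380 FPKM in mimic samples and 8.35 ± 1.13 FPKM in control samples (log2 fold change -0.44, SE 0.14, adjusted p = 0.0328). The ADAM10 call was lost with median-of-ratios scaling (adjusted p = 0.412) and when every gene was tested without a filter (0.0554). It was also lost without mimic sample 2 (adjusted p = 0.0915), mimic sample 3 (0.0559), control sample 1 (0.112) or control sample 2 (0.122). SDC4, another such proteoglycan, was not called (adjusted p = 0.0539), but it was called without mimic sample 1 (adjusted p = 0.0154) or without control sample 3 (adjusted p = 0.0412).

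Genes of signals known to induce chemokines moved in both directions. The list held 23 genes, mostly cytokines and their receptors. It also held Toll-like receptors, the adaptor MYD88 and the kinase IRAK1. Of the 23 genes 17 were tested, with 6 called lower and 4 higher. The share called lower was below the 39.6% of all tested genes, and the share called higher was above their 12.0%. The median log2 fold change was -0.16, against -0.29 over all tested genes. After median-of-ratios scaling 5 were called lower and 5 higher, with a median of 0.11, against 27.4% lower and 26.9% higher over all tested genes. IL6, the main acute-phase cytokine, averaged 3.97 ± 0.320 FPKM in mimic samples and 28.3 ± 3.33 FPKM in control samples (log2 fold change -2.69, SE 0.14, adjusted p = 1.39e-05 by limma). IL1B averaged 1.16 ± 0.146 FPKM in mimic samples and 7.45 ± 0.309 FPKM in control samples (log2 fold change -2.26, SE 0.14, adjusted p = 2.74e-05), and IL1A averaged 0.811 ± 0.147 FPKM in mimic samples and 3.50 ± 0.370 FPKM in control samples (log2 fold change -1.61, SE 0.16, adjusted p = 0.000150). Both encode interleukin-1, which switches on NF-kappaB. IL1A passed the filter only through the control samples, and over the alternatives its log2 fold change lay between -1.99 and -0.92. LIF, a cytokine of the IL6 family, had a log2 fold change of -1.32 (SE 0.16, adjusted p = 0.000327). The 4 called higher, named after their values were seen, were IL18, a cytokine of the interleukin-1 family (log2 fold change 0.38, adjusted p = 0.0452), LTBR, the lymphotoxin beta receptor (0.45, adjusted p = 0.0359), TNFRSF1A, a receptor of tumour necrosis factor (1.05, adjusted p = 0.0446), and IRAK1, a kinase of interleukin-1 signalling (1.02, adjusted p = 0.0186). The count of 4 called higher fell to 1 without mimic sample 2, mimic sample 3 or control sample 2, to 2 without control sample 3 and to 0 without control sample 1.

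Among 19 NF-kappaB subunits and regulators, all tested, 6 were called lower and 4 higher. The share called lower was below the 39.6% of all tested genes, and the share called higher was above their 12.0%. The median of the 19 log2 fold changes was -0.11, against -0.29 over all tested genes. The balance depended on the scale, with 4 lower and 6 higher calls and a median of 0.21 after median-of-ratios scaling, and 3 lower and 5 higher calls after quantile normalization. Median-of-ratios scaling called 27.4% of all tested genes lower and 26.9% higher. NFKBIZ, a nuclear cofactor that NF-kappaB needs at some inflammatory promoters, averaged 6.72 ± 1.49 FPKM in mimic samples and 230.3 ± 42.2 FPKM in control samples (log2 fold change -5.0, SE 0.19, adjusted p = 4.73e-06 by limma). TNFAIP3, a feedback inhibitor of the pathway, averaged 2.44 ± 0.346 FPKM in mimic samples and 12.2 ± 1.57 FPKM in control samples (log2 fold change -2.11, SE 0.16, adjusted p = 4.92e-05). MAP3K7, the kinase TAK1 upstream of IKK, had a log2 fold change of -1.03 (SE 0.13, adjusted p = 0.000361). IKBKG, the regulatory subunit of IKK, was higher, at 23.1 ± 0.687 FPKM in mimic samples and 7.24 ± 1.28 FPKM in control samples (log2 fold change 1.62, SE 0.15, adjusted p = 0.000105), although a near-identical pseudogene makes its reads hard to place.

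Other NF-kappaB target genes did not follow a single direction. Of 14 such genes 10 were tested, with 4 called lower and 2 higher around a median of -0.03 on the log2 scale, against 39.6% lower and 12.0% higher over all tested genes. Median-of-ratios scaling gave 3 lower and 5 higher calls, against 27.4% lower and 26.9% higher over all tested genes, and a median of 0.30. BIRC3, an inhibitor of cell death, averaged 32.9 ± 5.29 FPKM in mimic samples and 114.8 ± 21.7 FPKM in control samples (log2 fold change -1.78, SE 0.18, adjusted p = 0.000163 by limma). The log2 fold change was -0.85 for IER3, an immediate early gene (SE 0.13, adjusted p = 0.000837), and -0.86 for CFB, complement factor B (SE 0.19, adjusted p = 0.00607). ICAM1, an adhesion molecule that leukocytes bind, was higher, at 14.3 ± 0.305 FPKM in mimic samples and 8.39 ± 1.16 FPKM in control samples (log2 fold change 0.75, SE 0.14, adjusted p = 0.00266). ICAM1 and CCL2 thus moved opposite to CXCL8, CXCL2 and BIRC3.

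Among 11 genes of AP-1, C/EBP and the early growth response, all tested, 8 were called lower and none higher, around a median of -1.27 on the log2 scale, against 39.6% lower and 12.0% higher over all tested genes. The 3 not called were both C/EBP genes, CEBPB and CEBPD, and FOSL2, with log2 fold changes of 0.50, 0.13 and 0.11. On the median-of-ratios scale these 3 were called higher and 7 genes lower, with a median of -0.95, against 27.4% lower and 26.9% higher over all tested genes. On the deposited scale without mimic sample 3, a count of 1 was called higher. FOSB, an AP-1 subunit, averaged 0.452 ± 0.0755 FPKM in mimic samples and 87.5 ± 11.6 FPKM in control samples (log2 fold change -6.52, SE 0.15, adjusted p = 5.51e-07 by limma). FOS, the prototype subunit, averaged 9.53 ± 2.58 FPKM in mimic samples and 490.0 ± 51.2 FPKM in control samples (log2 fold change -5.64, SE 0.21, adjusted p = 4.73e-06). The log2 fold change was -6.32 for EGR1 (SE 0.17, adjusted p = 1.31e-06) and -4.76 for ATF3 (SE 0.16, adjusted p = 3.08e-06), both stress-induced transcription factors. FOSB and EGR1, which averaged 0.259 FPKM in mimic samples and 60.5 FPKM in control samples, passed the filter only through the control samples, and their fold changes depend on the added 0.5 FPKM. Over the alternatives the log2 fold change lay between -7.31 and -5.92 for FOSB and between -7.41 and -5.60 for EGR1.

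Proteins that bind AU-rich or other elements of inflammatory mRNAs were also tested, and of 11 genes 6 were called lower and 2 higher around a median of -0.39 on the log2 scale, against the same shares over all tested genes of 39.6% and 12.0%. After median-of-ratios scaling 4 were called lower and 3 higher around a median of -0.07, against 27.4% lower and 26.9% higher over all tested genes. ZFP36, which speeds the decay of AU-rich mRNAs, averaged 6.49 ± 0.935 FPKM in mimic samples and 22.9 ± 4.02 FPKM in control samples (log2 fold change -1.74, SE 0.17, adjusted p = 0.000150 by limma). ZC3H12A, a ribonuclease that cleaves inflammatory mRNAs, averaged 14 ± 0.861 FPKM in mimic samples and 34.1 ± 1.49 FPKM in control samples (log2 fold change -1.25, SE 0.12, adjusted p = 0.000133). TIA1, a translational silencer, had a log2 fold change of -1.78 (SE 0.17, adjusted p = 0.000116). KHSRP, another decay factor, was higher, at 158.3 ± 22 FPKM in mimic samples and 86.6 ± 3.57 FPKM in control samples (log2 fold change 0.86, SE 0.15, adjusted p = 0.00174). The count of 6 called lower fell to 3 without mimic sample 1.

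**Figure D5:**
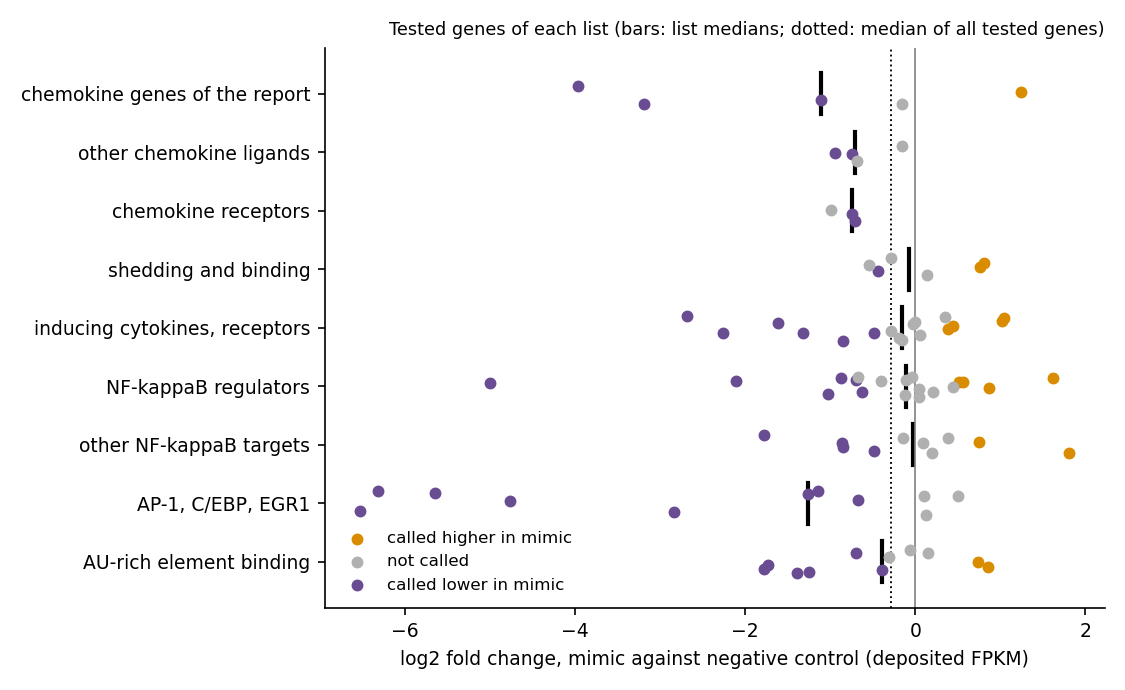
Log2 fold change of mimic against negative control samples for each tested gene, by gene list, with the median of each list as a black bar and the median of all tested genes, -0.29, as a dotted line. The list of AP-1, C/EBP and early growth response genes has the lowest median, -1.27, and the other lists hold calls in both directions or too few tested genes to describe a direction.

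The 5 tested protein-coding genes whose profiles over the 6 samples lay closest to that of CXCL8 were HES1, HIST2H3A, C8orf4, HIST2H3C and CYR61. Closeness was the root mean square difference of centred log2(FPKM + 0.5) values among 11566 candidates. It was 0.186 for HES1, a transcriptional repressor, 0.197 for HIST2H3A, 0.20 for C8orf4, 0.209 for HIST2H3C and 0.213 for CYR61, a secreted matrix protein. Their log2 fold changes were -3.98 for HES1, -3.76 for HIST2H3A, -4.00 for C8orf4, -3.75 for HIST2H3C and -3.66 for CYR61. Values near the -3.97 of CXCL8 follow from the way these genes were chosen. The CXCL8 profile itself depends on the added 0.5 FPKM. C8orf4 averaged 0.0428 FPKM in mimic samples and 8.18 FPKM in control samples, so it passed the filter only through the control samples, and its fold change and its closeness to CXCL8 depend on the added 0.5 FPKM. HIST2H3A and HIST2H3C encode the same histone from near-identical copies, so their reads cannot be separated with confidence.

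Markers of other cells were summed beside the chemokines. The 12 myeloid markers summed to 12.4, 20.5 and 20.4 FPKM in mimic samples 1, 2 and 3, against 15.4, 15.4 and 12.0 FPKM in control samples 1, 2 and 3, with CD163 and FCGR3B at 0 in all samples. CD68, a lysosomal protein that many cells make, was higher, at 16.2 ± 4.71 FPKM in mimic samples and 8.17 ± 0.758 FPKM in control samples (adjusted p = 0.00938 by limma, and 0.0853 without sample 3 of both groups). S100A9 was lower, at 0.997 ± 0.0636 FPKM in mimic samples and 4.50 ± 1.39 FPKM in control samples (adjusted p = 0.000389 by limma), and passed the filter only through the control samples. CD14 averaged 0.404 FPKM in mimic samples and 1.27 FPKM in control samples. The 6 lymphocyte markers summed to at most 0.0810 FPKM in mimic samples and at most 0.258 FPKM in control samples. The 9 stromal and endothelial markers summed to 8.43 to 10.9 FPKM in mimic samples, against 19.1 to 21.1 FPKM in control samples. COL1A1 made up most of that sum, at 7.99 ± 1.43 FPKM in mimic samples and 17.4 ± 0.408 FPKM in control samples (adjusted p = 0.000606 by limma), and CDH5 averaged 0.322 FPKM in mimic samples and 1.49 FPKM in control samples. In the same list, PDGFRB, at 0.950 FPKM in mimic samples and 0.523 FPKM in control samples, and LUM, at 0.101 FPKM in mimic samples and 0.0288 FPKM in control samples, lay higher in all 3 mimic samples. Both were below the filter and were named after their values were seen. The 11 hepatocyte markers summed to 0.933 to 1.31 FPKM in mimic samples, against 1.12 to 2.11 FPKM in control samples. SERPINA1, the only marker of that list to reach 1 FPKM in any sample, averaged 0.149 FPKM in mimic samples and 0.978 FPKM in control samples. TF also lay lower, at 0.0209 FPKM in mimic samples and 0.244 FPKM in control samples. HNF4A lay higher in all 3 mimic samples, at 0.858 FPKM in mimic samples and 0.206 FPKM in control samples. SERPINA1, TF and HNF4A were below the filter. The part of these markers in the chemokine values was not tested.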

How the data were processed

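RNA was sequenced from 6 samples of cells labelled Huh-7, 3 with a miR-27a-3p mimic and 3 with a negative control RNA. Values are FPKM as deposited by the authors, per the file headers, for 58174 genes, and the single-sample files held the same values as the series matrix. The submitters' processing notes name FastQC, HISAT2 and the build hg38. Not given in the sources used here are the counting tool, its strand setting and the annotation, so overlapping genes on opposite strands cannot be separated. No counts accompany the FPKM values, and whole fragments could not be recovered: 11.9% to 15.6% of low values came out whole within 1%. The depth is therefore unknown, and no counting interval is given. An FPKM is a share of its library, so mitochondrial or other abundant transcripts lower all other values.

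The 14439 genes whose mean over the 6 samples reached 1 FPKM were kept, and log2(FPKM + 0.5) was fitted with limma 3.58.1 (trend, robust) in R 4.3.3, with Benjamini-Hochberg adjustment over all of them and a call at an adjusted p under 0.05. The code was tested on simulated data. Fold changes are on the log2(FPKM + 0.5) scale, which understates changes of low genes. Alternatives were median-of-ratios and quantile scaling, mitochondrial genes left out, pseudocounts of 0.1 and 1, no filter or a mean of 5 FPKM, no trend, a replicate block, and each sample left out. Exact permutation tests used single genes. The text names the 10 chemokine genes, up to 4 tested genes of smallest p per further list, marker genes with a mean of 1 FPKM in either group, and the 5 genes closest to CXCL8. Individual markers at or near 0 and the chemokine receptors below the filter were named after their values were seen. So were SERPINA1, TF, HNF4A, PDGFRB, LUM, CEBPB, CEBPD and FOSL2. The chemokine genes and all lists were chosen with earlier results of these data known. Seed and AU-rich words were searched in the longest 3′ untranslated region of each gene in GENCODE release 29, and transcripts were aligned with Biopython 1.88. Of the lists named here, CCL3L3 and CCL4L1 had no row under these names.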

Additional observations from a re-analysis of the deposited data

How the results depend on the processing

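Every call on CXCL8, CXCL2 and CCL2 held under each alternative that tested the gene. The log2 fold changes lay between -4.65 and -3.45 for CXCL8 (adjusted p by limma 8.55e-06 to 0.00154), between -3.32 and -2.88 for CXCL2 and between 1.08 and 1.82 for CCL2 (adjusted p 0.000349 to 0.0155). CXCL3 was at -0.45 and not called after quantile normalization. CXCL16 turned to 0.16 with median-of-ratios scaling, and CCL26 turned to 0.13 with that scaling, to 0.30 with quantile normalization and, over the fits that each left out a sample, lay between -0.36 and 0.040, the highest being without mimic replicate 3. When the filter was raised to 5 FPKM, CCL2 was not tested, so 0 of the 10 genes were called higher. With no filter, 4 of the 10 genes were called lower, CCL20 among them. Of all genes, 5718 were called lower and 1735 higher. Calls lower came to 3289 with quantile normalization, 8755 with no filter and 2916 with the filter at 5 FPKM, and calls higher came to 3889 with median-of-ratios scaling and 3592 with quantile normalization. In these cases fewer or more genes were tested, or the scale was shifted. Deviations of same-numbered samples correlated at 0.177, -0.0467 and 0.223, so the numbers were not taken as pairs. Of the mimic samples, numbers 1 and 3 correlated best with their own number and number 2 did not. With the replicate block, 5994 genes were called lower and 2117 higher, 3 of the 10 genes were lower and 1 higher, and CCL5, ACKR3 and SDC4 became calls (adjusted p = 0.0401, 0.00161 and 0.0129). Values near or below 0.5 FPKM, such as those of CXCL8 in mimic samples and of CCL20, are limited by the unknown depth. No reads per gene were at hand.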
